A study of Mus musculus with 7 samples.

Results

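The BCL2 family was represented by 9 genes, chosen by name: the survival members Bcl2, Bcl2l1 and Mcl1, and the death-promoting members Bax, Bak1, Bnip3, Bcl2l11, Bbc3 and Bid. All 9 were found among the 14641 genes of the count table, and all 9 were among the 14637 genes tested. Messenger RNA from heart lysates, described as whole heart, was sequenced for 4 non-transgenic (NTG) mice and for 3 mNrf2-TG mice. There was 1 library per mouse, numbered NTG 1 to 4 and mNrf2-TG 17 to 19. All mice were male C57BL/6J littermates. The mNrf2-TG mice carried full-length Nrf2, the transcription factor that controls antioxidant genes, under the cardiomyocyte promoter αMHC, and the NTG mice carried no transgene. The mNrf2-TG libraries were labelled 6 months of age, the NTG labels gave no age, and the study text gave other ages in other places. Because heart tissue was lysed without separating its cells, fewer cells of a type and less RNA per cell cannot be told apart.

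BCL2 proteins decide whether the outer mitochondrial membrane is opened during apoptosis. Bcl2, Bcl2l1 (BCL-XL) and Mcl1 hold the membrane closed, Bax and Bak1 form the pores, and BH3-only proteins such as Bcl2l11 (BIM), Bbc3 (PUMA) and Bid relay death signals to the other groups. Released cytochrome c then assembles the apoptosome, which activates caspase 9 and through it the executioner caspases. Cardiomyocytes divide rarely and depend on survival members, and Bnip3 is best known in the heart as a hypoxia-induced protein that marks mitochondria for mitophagy.

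Counts on genes summed to 6534684 in the shallowest library and 8405857 in the deepest. Nfe2l2, which encodes Nrf2, had a mean of 1114 ± 281 normalized counts in the NTG hearts (SD, n = 4) and of 11478 ± 657 in the mNrf2-TG hearts (n = 3), a Log2FC of 3.36 that includes transgene reads. A normalized count is a count scaled by TMM, which corrects for library size and composition, to the mean library size. Among heart cell types, 5 of 9 cardiomyocyte markers were lower and none higher in mNrf2-TG, with a summed level per heart of 790842 to 829163 normalized counts (NTG) and of 668276 to 695711 (mNrf2-TG). Of the fibroblast markers 5 of 7 were higher, with sums of 8330 to 10732 and 11588 to 12232. Of the macrophage markers 4 of 7 were higher, with sums of 1096 to 1568 and 1834 to 2591. Endothelial markers were mixed, with 1 of 7 higher and 2 lower. Of smooth muscle and pericyte markers 1 of 6 was lower, of skeletal muscle markers 2 of 5, and of epicardial and mesothelial markers 1 of 4. None in these 3 lists was higher. Higher and lower here mean an adjusted p under 0.05 in edgeR, which 17.2% of all genes tested had. Of the atrial markers, Myl7 had at most 4 counts in any library and Myl4 had 17 to 65. Nppa had 658 to 3592 counts and was higher in mNrf2-TG. How much atrial tissue entered the lysates was not tested. B cell and T and NK cell markers summed to at most 19.4 and 4.93 normalized counts in any library. These marker shifts lie between the same groups as the differences reported here, and their part in those differences was not tested.

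By edgeR's quasi-likelihood test with Benjamini-Hochberg adjustment over all genes tested, 2 of the 9 members had an adjusted p under 0.05, and both were lower in mNrf2-TG. Of all genes tested, 17.2% passed this threshold, 8.73% as lower and 8.48% as higher. Both were survival members, Bcl2l1 and Mcl1. None of the 6 death-promoting members passed in edgeR, DESeq2 or limma-voom. An unadjusted p under 0.05 in edgeR was found for 1 of the 6, Bnip3, and for all 3 survival members, of which Bcl2 was higher in mNrf2-TG. Of the 14637 genes tested, 4708 had such a p. The normalized counts of 2 of the 9 members, again Bcl2l1 and Mcl1, did not overlap between the groups, as was true of 29.7% of all genes tested. The median Log2FC was -0.27 over the 3 survival members, 0.07 over the 6 death-promoting members and 0.00 over all genes tested. The survival median is the value of Mcl1 alone, between Bcl2l1 at -0.98 and Bcl2 at 0.49, so it does not describe a shared fall.

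The windows of 250 bases directly before a start site of Bcl2l1 and of Mcl1 are shown here because these were the members that changed. They are RefSeq promoter sequences of GRCm38.p6, printed 5′ to 3′ on the strand of the gene. For Bcl2l1 the window at the outermost of 3 start sites is shown, chr2:152831729-152831978 on the minus strand, and for Mcl1 the window at its only listed start site, chr3:95658471-95658720 on the plus strand.
Bcl2l1: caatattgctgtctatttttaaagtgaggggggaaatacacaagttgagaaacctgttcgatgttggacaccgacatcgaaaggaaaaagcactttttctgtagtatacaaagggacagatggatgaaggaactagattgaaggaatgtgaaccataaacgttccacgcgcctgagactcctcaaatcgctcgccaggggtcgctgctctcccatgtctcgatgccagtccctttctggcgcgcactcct
Mcl1: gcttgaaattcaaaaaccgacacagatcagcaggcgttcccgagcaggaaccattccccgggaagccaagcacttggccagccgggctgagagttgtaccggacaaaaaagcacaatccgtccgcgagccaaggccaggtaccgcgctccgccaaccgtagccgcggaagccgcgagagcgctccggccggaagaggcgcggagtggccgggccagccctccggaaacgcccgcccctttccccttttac
Both were searched on both strands for the antioxidant response element core TGACNNNGC, through which Nrf2 binds, and for the hypoxia response element core ACGTG. Neither window held either set of letters, so no base is in capitals. Of 32851 RefSeq promoters of the same length, 10.2% held the first and 16.6% the second. At another of its start sites, Bcl2l1 held 1 match to the first, TGACAGGGC, on the opposite strand 127 bases before the start. The second was found before start sites of Bax, Bnip3 and Bbc3, and in none of the windows of Bcl2, Bak1, Bcl2l11 and Bid.

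**Figure D1:**
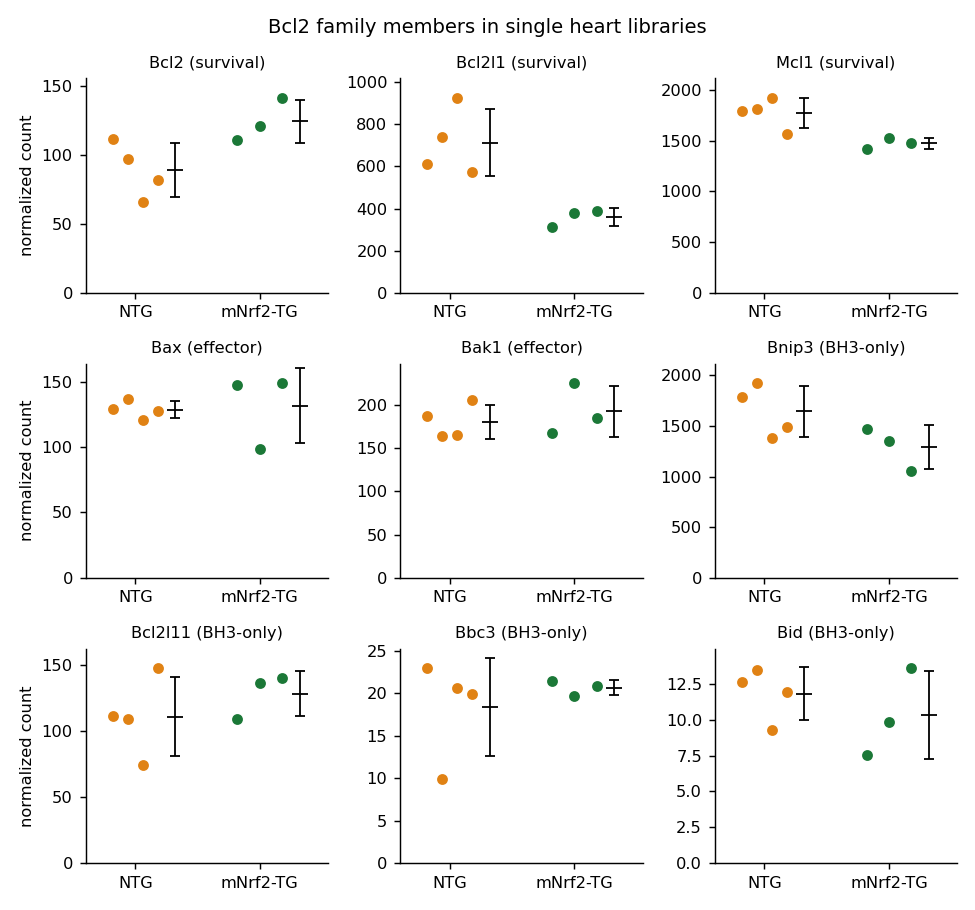
Normalized counts (linear axis from 0) of the 9 members in each of the 4 NTG libraries (orange) and 3 mNrf2-TG libraries (green), with the group mean and SD in black. The green points of Bcl2l1 lie between 312 and 390, under the lowest orange point at 571, while those of Bax straddle the NTG range and those of Bak1 overlap it.

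Bcl2l1 (Entrez 12048) lies on the minus strand of chromosome 2, from 152780668 to 152831728 in GENCODE M21 (GRCm38). It had 614, 742, 926 and 571 normalized counts in NTG 1 to 4, and 312, 379 and 390 in mNrf2-TG 17 to 19. Every mNrf2-TG heart was below every NTG heart, and NTG 3 was the highest of all. The mean was 713 ± 159 in NTG and 361 ± 42.4 in mNrf2-TG, a Log2FC of -0.98 (SE 0.163, 95% interval -1.35 to -0.62, adjusted p = 0.00417, edgeR). This is 1.98-fold higher in NTG. Bcl2l1 kept an adjusted p under 0.05 in all 15 alternative analyses, between 5.12e-07 and 0.0248, and without any 1 library its Log2FC lay between -1.07 and -0.83. No stretch of 50 bases of its transcripts occurred in another gene.

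Mcl1 (Entrez 17210), a survival member with a short-lived protein, lies on the plus strand of chromosome 3 from 95658788 to 95663176. Its normalized counts were 1796, 1809, 1921 and 1560 in NTG 1 to 4, and 1421, 1528 and 1472 in mNrf2-TG 17 to 19. The groups did not overlap, although the lowest NTG heart and the highest mNrf2-TG heart were close. The mean was 1772 ± 152 in NTG and 1474 ± 53.4 in mNrf2-TG, a Log2FC of -0.27 (SE 0.0807, 95% interval -0.45 to -0.09, adjusted p = 0.0484, edgeR). The call was near the threshold: it was lost when NTG 1, 2 or 3 or mNrf2-TG 17, 18 or 19 was left out, with adjusted p between 0.0732 and 0.149, and when libraries were scaled by their totals only, at an adjusted p of 0.0654. The Log2FC stayed between -0.32 and -0.22 throughout these fits.

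Bcl2, the founding survival member, is encoded on the minus strand of chromosome 1 from 106538178 to 106714274. It had 111, 97.2, 66.0 and 81.6 normalized counts in NTG 1 to 4, and 111, 121 and 142 in mNrf2-TG 17 to 19. NTG 1 and mNrf2-TG 17 stood at nearly the same level, so the groups overlapped at that point alone. The means of 89.1 ± 19.6 and 125 ± 15.7 gave a Log2FC of 0.49 (95% interval 0.10 to 0.88, adjusted p = 0.0816, edgeR), which did not pass, nor did it in any of the 15 alternatives. An antisense gene, D630008O14Rik, overlaps 33103 bases of the Bcl2 locus.

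Among the pore-forming members, Bax had 129, 137, 121 and 127 normalized counts in NTG 1 to 4, and 147, 98.5 and 149 in mNrf2-TG 17 to 19. Of the mNrf2-TG hearts 17 and 19 lay above the NTG range and 18 below it. The Log2FC was 0.03, with a 95% interval of -0.30 to 0.36 (adjusted p = 0.901, edgeR). Of the 50-base stretches of Bax transcripts, 8.51% also occur in Gm45808, an overlapping gene on the same strand.

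Bak1 had 187, 164, 165 and 206 normalized counts in NTG 1 to 4, and 168, 226 and 185 in mNrf2-TG 17 to 19. The groups overlapped over most of their range. Its Log2FC was 0.10, with a 95% interval of -0.19 to 0.38 (adjusted p = 0.652, edgeR). Leaving out mNrf2-TG 18 turned the sign for Bak1, to -0.03, and leaving out mNrf2-TG 17 or 19 turned it for Bax, to -0.05 and -0.06. The Bak1 locus lies wholly within Ggnbp1 on the other strand.

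Bnip3 was the highest of the BH3-only members per kilobase of exon. It had 1785, 1923, 1385 and 1488 normalized counts in NTG 1 to 4, and 1466, 1356 and 1050 in mNrf2-TG 17 to 19. The hearts NTG 3 and mNrf2-TG 17 overlapped. The means were 1645 ± 251 and 1291 ± 216, a Log2FC of -0.35 (95% interval -0.66 to -0.04, adjusted p = 0.112, edgeR). Without NTG 3 the Log2FC was -0.43 and the adjusted p 0.0422, and Bnip3 passed in none of the 14 other alternatives. Of its 50-base stretches 16.55% also occur in 4 other genes, so part of its reads could have been assigned elsewhere.

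Bcl2l11 (BIM) had 111, 109, 74.2 and 147 normalized counts in NTG 1 to 4, and 109, 136 and 140 in mNrf2-TG 17 to 19. All 3 mNrf2-TG hearts fell inside the NTG range. The Log2FC of Bcl2l11 was 0.22, with a 95% interval of -0.23 to 0.66 (adjusted p = 0.501, edgeR).

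Bbc3 (PUMA), a direct p53 target, was covered by 11 to 20 counts per NTG heart and 20 to 23 per mNrf2-TG heart. Its normalized counts were 23.0, 9.90, 20.6 and 19.9 in NTG 1 to 4, and 21.5, 19.7 and 20.9 in mNrf2-TG 17 to 19. NTG 2 was well below the 6 other hearts, which were close together. The Log2FC of 0.19 had a 95% interval of -0.48 to 0.86 (adjusted p = 0.715, edgeR), and without NTG 2 it was -0.02.

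Bid, which links death receptors to mitochondria once caspase 8 has cleaved it, was covered by 9 to 15 counts per NTG heart and 7 to 15 per mNrf2-TG heart. Its normalized counts were 12.6, 13.5, 9.28 and 11.9 in NTG 1 to 4, and 7.53, 9.85 and 13.6 in mNrf2-TG 17 to 19. The mNrf2-TG hearts spanned the whole NTG range. With a Log2FC of -0.18 and a 95% interval of -0.90 to 0.53 (adjusted p = 0.747, edgeR), this depth could not show a moderate difference in either direction. The Bid and Bcl2l13 loci overlap by 913 bases on opposite strands.

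**Figure D2:**
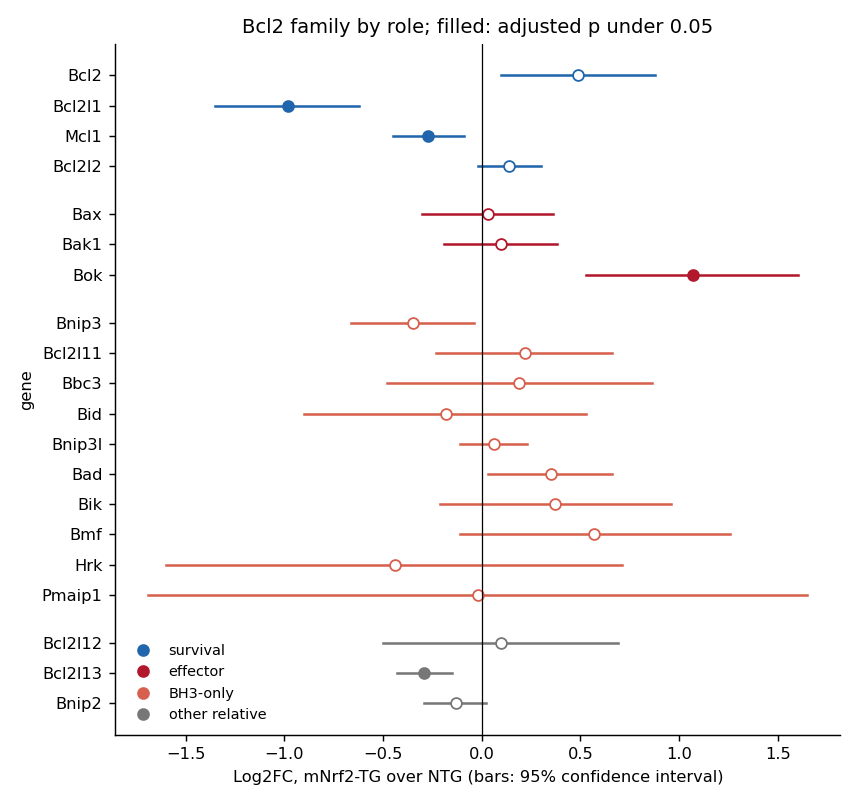
Log2FC of mNrf2-TG over NTG for the 9 members and for their relatives by role, with 95% confidence intervals from edgeR. Filled points have an adjusted p under 0.05: Bcl2l1 at -0.98, Mcl1 at -0.27, Bok at 1.07 and Bcl2l13 at -0.29.

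The levels of the members differed more among themselves than between genotypes. Expressed per length (RPKM, reads per kilobase of exon scaled to library size), Bnip3 was the highest in NTG at 96.5 ± 14.7 (SD, n = 4), followed by Mcl1 at 68.9 ± 5.90 and Bcl2l1 at 20.7 ± 4.61. Bax, at 10.8 ± 0.559, and Bak1, at 9.97 ± 1.11, were within their spread of each other. Bcl2l11 at 1.83 ± 0.494, Bcl2 at 1.29 ± 0.285 and Bbc3 at 1.15 ± 0.362 were neighbours that overlapped in the same way, and Bid was the lowest at 0.443 ± 0.0682. In mNrf2-TG the per kilobase level was 75.7 ± 12.7 for Bnip3 and 57.3 ± 2.08 for Mcl1. Bax at 11.1 ± 2.42, Bak1 at 10.6 ± 1.64 and Bcl2l1 at 10.4 ± 1.23 were then within their spread of one another, so that Bcl2l1 no longer stood above the pore-forming members.

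Survival and death-promoting members were contrasted within each heart, as a description without a test. The summed level per kilobase of Bcl2, Bcl2l1 and Mcl1 was 90.8 ± 9.97 in NTG and 69.5 ± 3.25 in mNrf2-TG, and every NTG heart, from 78.4 upwards, exceeded every mNrf2-TG heart, up to 72.2. The summed level of Bax and Bak1 was 20.8 ± 1.19 and 21.7 ± 1.01, with overlap. In normalized counts, all 6 death-promoting members summed to 2095 ± 260.1 in NTG and 1774 ± 191 in mNrf2-TG, also with overlap, and Bnip3 made up most of that sum. Within the sum of these 3 survival members, the share of Bcl2l1 was 22.6% in NTG and 15.0% in mNrf2-TG. The survival relative Bcl2l2 lies outside this sum and these shares. Its level per kilobase was 17.2 ± 0.813 in NTG and 18.9 ± 0.887 in mNrf2-TG. The share of Mcl1 was 76.0% and 82.4%, and that of Bcl2 1.44% and 2.60%, so Bcl2 was a minor transcript in both genotypes.

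The ratio of Bax to Bcl2l1 counts was 0.210, 0.184, 0.130 and 0.223 in NTG 1 to 4, and 0.472, 0.260 and 0.381 in mNrf2-TG 17 to 19. The groups did not overlap, and mNrf2-TG 18, with the lowest Bax, came nearest to NTG. The ratio of Bax to Bcl2 counts went the other way, at 1.15, 1.41, 1.83 and 1.56 in NTG and 1.33, 0.813 and 1.05 in mNrf2-TG, and the groups overlapped. The mean ratio therefore moved in opposite directions with Bcl2l1 and with Bcl2 as the denominator, and Bcl2 itself did not pass. A ratio to Mcl1, the largest part of the survival sum, was not computed. The mean log2 normalized count of the 3 survival members minus that of the 6 death-promoting members was 2.27 ± 0.237 for NTG and 2.02 ± 0.0687 for mNrf2-TG, and the groups overlapped. NTG 3 was the highest or lowest NTG heart for 7 of the 9 members, and NTG 1, 2 and 4 were so for 2, 5 and 4. NTG 3 had the highest Bcl2l1 and Mcl1 and the lowest Bcl2, Bax, Bnip3, Bcl2l11 and Bid. No such count was made over all genes.

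**Figure D3:**
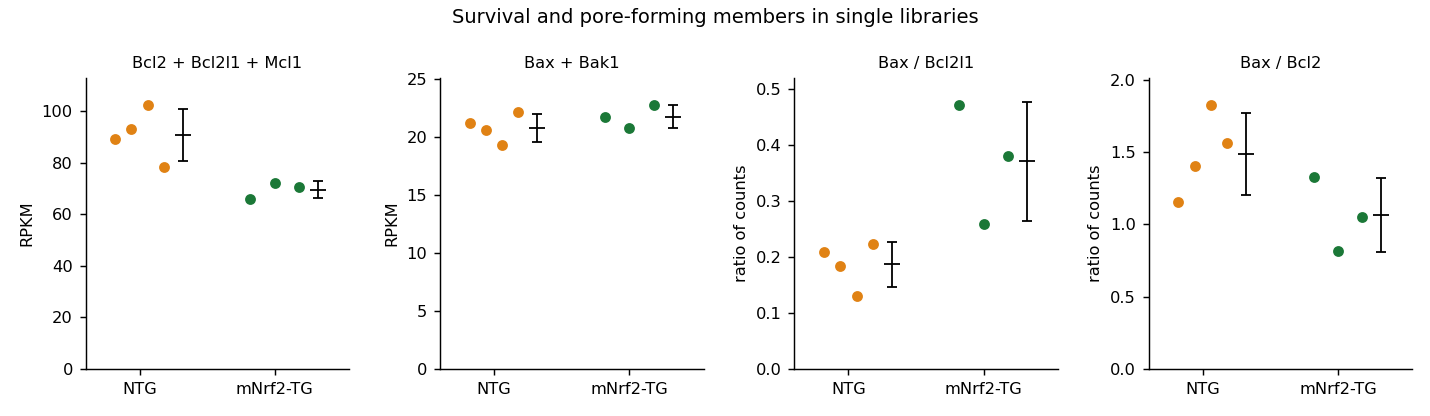
Summed level per kilobase (RPKM) of the survival members and of Bax and Bak1, and the ratios of Bax to Bcl2l1 and of Bax to Bcl2 counts, in each library (linear axes from 0, black marks are mean and SD). NTG (orange, n = 4) and mNrf2-TG (green, n = 3) are apart for the survival sum and for Bax to Bcl2l1, and overlap in the other panels.

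Other relatives of the family were listed by role, 18 in all, of which 14 were tested, 1 was higher and 1 lower. Bok, a pore-forming relative of Bax, rose from 15.4 ± 2.27 to 32.4 ± 6.31 normalized counts (Log2FC 1.07, 95% interval 0.53 to 1.60, adjusted p = 0.0150, edgeR). Its counts were 11, 16, 17 and 17 in NTG and 31, 26 and 42 in mNrf2-TG, without overlap. The call was lost without mNrf2-TG 17, at 0.0529, and without mNrf2-TG 19, at 0.0629. Bcl2l13, a mitophagy receptor of the outer membrane, fell from 1121 ± 32.9 to 915 ± 15.3 (Log2FC -0.29, adjusted p = 0.0122, edgeR).

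The survival relative Bcl2l2 (BCL-W) had a Log2FC of 0.14 (95% interval -0.02 to 0.30, adjusted p = 0.212, edgeR), and 12.12% of its 50-base stretches also occur in the overlapping gene Gm20521. Bnip3l, the close relative of Bnip3, had a Log2FC of 0.06 (95% interval -0.11 to 0.23, adjusted p = 0.652, edgeR). Bad, which is held inactive by survival kinases, had a Log2FC of 0.35 (95% interval 0.03 to 0.66, adjusted p = 0.120, edgeR) with no overlap between groups. Pmaip1 (NOXA), the BH3-only protein that binds Mcl1, was covered by at most 5 counts in any heart. The Bcl2a1 genes, survival members of blood cells, likewise had at most 14 counts. The remaining BH3-only relatives Bik, Bmf and Hrk had Log2FC of 0.37, 0.57 and -0.44, all with intervals that included 0.

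Of 112 listed genes around the family, 106 were tested, 10 were higher, 11 lower and 85 did not pass, beside 17.2% of all genes. Their median Log2FC was -0.02.

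**Figure D4:**
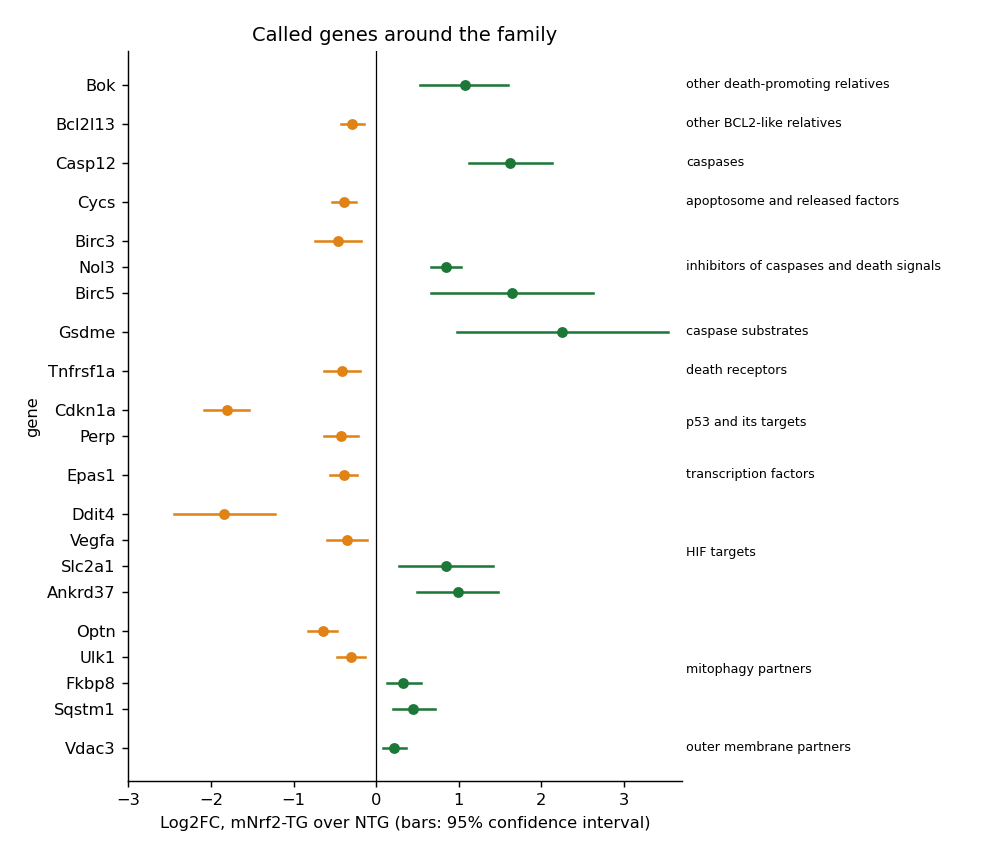
Log2FC of mNrf2-TG over NTG with 95% confidence intervals for the 21 listed genes around the family that had an adjusted p under 0.05, by list. Green marks higher and orange lower levels in mNrf2-TG, from Ddit4 at -1.84 to Gsdme at 2.25.

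Among 8 caspases tested, 1 was higher and none lower. Casp12, a caspase of the endoplasmic reticulum in rodents, had 55.2, 87.3, 114 and 64.7 normalized counts in NTG 1 to 4, and 284, 274 and 190 in mNrf2-TG 17 to 19. The groups were far apart. Its mean rose from 80.4 ± 26.4 to 249 ± 51.8 (Log2FC 1.62, 95% interval 1.12 to 2.13, adjusted p = 0.00174, edgeR), and it passed in all 15 alternatives. Casp9, the initiator activated by the apoptosome, had a Log2FC of 0.28 (95% interval -0.02 to 0.58, adjusted p = 0.186, edgeR).

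Of 6 genes for the apoptosome and factors released from mitochondria, 1 was lower. Cycs, which encodes cytochrome c, fell from a mean of 4216 ± 155 normalized counts to 3223 ± 187 (Log2FC -0.39, adjusted p = 0.00491, edgeR), and 25.88% of its 50-base stretches also occur in 43 other genes. Apaf1, the scaffold of the apoptosome, had a Log2FC of -0.09 (95% interval -0.56 to 0.38, adjusted p = 0.811, edgeR). Of 6 caspase substrates 1 was higher: Gsdme, a pore-former activated by caspase cleavage, which had a Log2FC of 2.25 (adjusted p = 0.0243, edgeR) on 7 counts in all NTG hearts together and 27 in all mNrf2-TG hearts. The ratio per read was 5.12, with an exact interval of 2.17 to 13.9 that covers counting error only. The call of Gsdme was lost in 4 of the 13 alternatives that could be fitted, without NTG 2 or 4 or mNrf2-TG 17 or 18, with adjusted p up to 0.0884. Its locus shares 10052 bases with the protein-coding gene Mpp6 on the other strand.

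Among 8 inhibitors of caspases and death signals, 2 were higher and 1 lower. Nol3 (ARC), an inhibitor of death signalling abundant in heart muscle, had 376, 324, 326 and 319 normalized counts in NTG 1 to 4, and 636, 584 and 587 in mNrf2-TG 17 to 19. The groups were wide apart. The mean of 336 ± 26.7 rose to 602 ± 29.0 (Log2FC 0.84, 95% interval 0.66 to 1.03, adjusted p = 0.000253, edgeR), in all 15 alternatives as well. The protein-coding gene 4931428F04Rik overlaps 1531 bases of the Nol3 locus on the other strand. Birc3, an inhibitor of apoptosis induced by NF-κB, fell from 99.5 ± 5.25 to 72.4 ± 8.47 (Log2FC -0.46, adjusted p = 0.0331, edgeR), and 7 of 15 alternatives did not call it. Birc5 (survivin), a mitotic inhibitor of apoptosis, had 10 counts in all NTG hearts and 25 in all mNrf2-TG hearts, a ratio per read of 3.32 with an exact interval of 1.54 to 7.74. Its adjusted p of 0.0303 in edgeR was 0.121 in DESeq2, and 7 of the 13 alternatives that could be fitted did not call it. Xiap, a direct inhibitor of caspases, had a Log2FC of -0.07 (95% interval -0.23 to 0.09, adjusted p = 0.532, edgeR).

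Of 8 genes of the death receptor pathway, 1 was lower: Tnfrsf1a, the TNF receptor, fell from a mean of 540 ± 60.3 normalized counts to 406 ± 15.1 (Log2FC -0.41, adjusted p = 0.0174, edgeR). It missed the threshold without NTG 2, at 0.0514, without mNrf2-TG 17, at 0.0569, and without mNrf2-TG 18, at 0.0658. Of 4 outer membrane partners 1 was higher, the channel gene Vdac3 (Log2FC 0.22, adjusted p = 0.0368, edgeR), which 6 of the 15 alternatives did not call, with adjusted p up to 0.126. The list of Mcl1 turnover, the ligases and the deubiquitinase that set how long the protein lasts, had none of 3 passing in edgeR, DESeq2 or limma-voom, and none at an unadjusted p under 0.05 in edgeR.

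Among p53 and its targets, 2 of 14 were lower and none higher. Cdkn1a (p21), the cell cycle inhibitor, had 457, 482, 575 and 610 normalized counts in NTG 1 to 4, and 148, 164 and 142 in mNrf2-TG 17 to 19. The highest mNrf2-TG heart was far below the lowest NTG heart. It fell by 1.81 on the log2 scale (95% interval -2.09 to -1.54, adjusted p = 1.74e-05, edgeR), in every alternative. Perp, a membrane protein, fell from 1434 ± 149 to 1067 ± 76.2 (Log2FC -0.43, adjusted p = 0.0135, edgeR), a call lost without mNrf2-TG 17, at 0.0610. Trp53 itself had a Log2FC of -0.07 (95% interval -0.35 to 0.21, adjusted p = 0.757, edgeR), and the p53 targets Bax and Bbc3 are given above.

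The hypoxia-inducible factors drive Bnip3 in the heart. Of 14 of their targets 2 were higher and 2 lower. Ddit4 (REDD1), an inhibitor of mTORC1, had 686, 848, 492 and 577 normalized counts in NTG 1 to 4, and 95.8, 223 and 225 in mNrf2-TG 17 to 19. The groups did not overlap, and mNrf2-TG 17 was the lowest. Its Log2FC was -1.84 (95% interval -2.45 to -1.22, adjusted p = 0.00257, edgeR). Vegfa, the endothelial growth factor, fell (Log2FC -0.35, adjusted p = 0.0490, edgeR), while Slc2a1, a glucose transporter, and Ankrd37 rose (Log2FC 0.85 and 0.99, adjusted p = 0.0471 and 0.0152, edgeR). The groups of Vegfa and of Slc2a1 overlapped, and 8 and 6 of the 15 alternatives did not call them. Ankrd37 was lost without mNrf2-TG 17, at 0.0676. Of 11 transcription factors with family members among their targets 1 was lower, Epas1, which encodes HIF-2α (Log2FC -0.39, adjusted p = 0.00715, edgeR).

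Of 12 mitophagy partners, which act with Bnip3, 2 were higher and 3 lower, beside 8.48% and 8.73% of all genes tested. Bnip3l and Bcl2l13 are in this list as well as among the relatives given above. Optn, a receptor for ubiquitin-tagged mitochondria, fell from a mean of 1231 ± 28.3 normalized counts to 785 ± 65.7 (Log2FC -0.65, adjusted p = 0.000611, edgeR). Ulk1, the kinase that starts autophagy, and Bcl2l13 fell as well, by 0.30 and 0.29 on the log2 scale (adjusted p = 0.0245 and 0.0122, edgeR). Sqstm1 (p62), an autophagy receptor and a target of Nrf2, rose from 3686 ± 461 to 5051 ± 679 (Log2FC 0.45, adjusted p = 0.0248, edgeR), and Fkbp8, a mitophagy receptor that also binds Bcl2, rose by 0.33 on the log2 scale (adjusted p = 0.0355, edgeR). Ulk1 and Fkbp8 each missed the threshold in 5 of the 15 alternatives, and Sqstm1 in 2.

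Genes whose pattern over the 7 libraries was most like that of Bcl2l1 and Mcl1 were sought among 9667 genes with a mean count of at least 50, by the root mean square difference of centred log2 values. For Bcl2l1 they were Rbfox1, a splicing regulator, at 0.0986 and Zfp36, which destabilises messenger RNAs, at 0.101, with Log2FC of -0.93 and -1.08. For Mcl1 they were Tpr, a nuclear pore protein, at 0.0321 and Rmdn3 at 0.0322, with Log2FC of -0.26 and -0.27. Rmdn3 did not pass (adjusted p = 0.0824, edgeR). A Log2FC close to that of the member follows from the way these genes were picked.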

How the data were processed

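Libraries of stranded, poly(A)-selected RNA were made from 4 NTG and 3 mNrf2-TG hearts. The authors aligned reads with Novoalign 2.08.01 (submitters' processing notes) to mm10 (GRCm38), and one passage of the methods names hg19. The counting program and use of strand are not given in the sources used here. Whether reads of overlapping genes on opposite strands were told apart is therefore not known. The overlaps given here are between whole loci, introns included, and do not show how many reads were shared. The authors deposited counts without normalization, log2 (rlog) values, and a DESeq2 1.32.0 comparison holding a mean signal, log2 fold changes, a test score and p-values, and only the counts were used.

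Of 14665 entries 24 repeats with equal counts were removed. Genes with a summed count above 1 were tested in edgeR 4.0.16 (R 4.3.3) by the quasi-likelihood test on TMM-scaled libraries with genotype as the only term, and called at an adjusted p under 0.05. The methods used DESeq2, run here (1.42.0) as an alternative, with limma-voom (limma 3.58.1), other scales and filters, and 7 fits that left out 1 library each, 15 in all. The scripts were tested on simulated data. Groups came from the genotype labels, and p-values measure the spread between these mice. At 6534684 to 8405857 counts per library, genes with under 20 counts per library could show large differences only.

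The members and lists were chosen with earlier results of these data known. The text names all members, listed genes that passed, fixed relatives of each role, Nfe2l2 and the 2 genes most like each member that passed. Promoters came from RefSeq (GRCm38.p6) and positions from GENCODE M21. Protein sequences were not used here, and 1 listed gene is not reported here.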

Additional observations from a re-analysis of the deposited data

Results flagged for a closer look

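The 9 members and the 21 genes around the family that passed, 30 genes in all, were checked, and in 1 of them an NTG heart lay far from the 3 others by Dixon's criterion. Nol3 had 376 normalized counts in NTG 1, while the 3 other NTG hearts had 319 to 326. The gap was 0.874 of the whole range, past the 95% critical value for 4 samples. Chance gives about 1 such heart in 20 groups, and NTG 1 lies toward the mNrf2-TG level, which was at least 584.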

How the results depend on the processing

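All 2519 genes called split into 1241 higher and 1278 lower, and under scaling by library totals only into 1383 higher and 1034 lower. That scaling moved the median Log2FC of all genes to 0.03 and left 1 member called in place of 2, with Mcl1 at -0.23. Leaving out 1 library gave 1373 genes called (without mNrf2-TG 17) to 2950 (without NTG 3), 1 to 2 members and 10 to 25 of the listed genes around the family. Without 1 library Mcl1 ranged from -0.32 to -0.22 and Bnip3 from -0.45 to -0.22. Signs turned for Bax (-0.06 to 0.21), Bak1 (-0.03 to 0.19), Bbc3 (-0.02 to 0.32), Apaf1 (0.09 without NTG 2, 0.07 without mNrf2-TG 17, lowest -0.22) and Trp53 (0.0044 without NTG 4, 0.02 without mNrf2-TG 17, lowest -0.13). The cause was not tested. Bcl2l1, Casp12, Cycs, Nol3, Cdkn1a, Ddit4, Epas1, Optn and Bcl2l13 passed in all 15 alternatives. Bid could not be fitted with a minimum of 10 counts. No paired analysis was possible because the groups share no replicate numbers.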

Other observations

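Other partners of the family were read after their values were seen. Of the 6 BAG genes, co-chaperones of which Bag1 was named for binding Bcl2, 2 were lower in mNrf2-TG and none higher. Of all genes tested, 8.73% were lower and 8.48% higher. Bag3, which maintains the sarcomere and guides selective autophagy in the heart, fell from 3840 ± 789 to 2408 ± 379 normalized counts (SD, n = 4 and 3), a Log2FC of -0.67 with an adjusted p of 0.0194 in edgeR. Bag1 fell from 1635 ± 70.8 to 1334 ± 28.2 (Log2FC -0.29, adjusted p = 0.0138, edgeR). Neither group pair overlapped, as was true of 29.7% of all genes tested. Each call was lost in 2 of the 15 alternatives, with adjusted p up to 0.0758 and 0.0521. Bclaf1, a nuclear protein first found as a partner of BCL2 proteins, fell from 1012 ± 163 to 693 ± 81.0 (Log2FC -0.55, adjusted p = 0.0186, edgeR) and missed the threshold in 4 of the 15 alternatives. Of 5 TMBIM genes tested, membrane proteins that include the BAX inhibitor Tmbim6, none passed in edgeR, and DESeq2 and limma-voom each called 1. An unadjusted p under 0.05 in edgeR was found for 2 of the 5, and for 4708 of all 14637 genes tested. Tmbim6 had a Log2FC of 0.07 with a 95% interval of -0.09 to 0.23.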
